A study of Mus musculus with 6 samples.

Results

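The Myc, Max and Mxd network was read from mouse 3T3-CrT fibroblasts given creatine (Cr). Its 9 genes are Myc, Mycn, Max, Mxd1, Mxd3, Mxd4, Mxi1, Mnt and Mga. All probes detected on at least 1 array whose gene symbol in the platform annotation is one of them were taken. These were 10 probes of 7 genes, among 20308 probes of 10585 named genes that were tested. Mxd4 had 3 probes, Mga had 2, and Myc, Max, Mxd3, Mxi1 and Mnt had 1 each, whereas Mycn and Mxd1 had no named probe among those tested and were not analysed here. The groups were 3 samples given 5 mM creatine monohydrate in growth medium for 3 h and 3 untreated samples, each from a well of its own and read on 1 BeadChip array (Illumina Mouse WG-6 v2, 1 colour). All 6 samples came from the same line, 3T3 Tet-Off fibroblasts that stably express a rabbit cDNA of the creatine transporter (CrT) with a COOH-terminal hemagglutinin tag, in a medium with serum, G418 and puromycin. The sources used here do not say whether that line is 1 clone. P-values measure the spread between wells, which may be technical. The study used this comparison to look for genes that saturating Cr raises and that may act on the transporter.

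Myc and Mycn are transcription factors of the basic helix-loop-helix leucine zipper type. They bind the DNA letters CACGTG, the E-box, as pairs with Max, and they raise the transcription of genes for ribosome assembly, nucleotide synthesis and cell division. Mxd1, Mxd3, Mxd4, Mxi1 and Mnt compete for Max and the same E-box, where they bring the Sin3 corepressor and histone deacetylases. Mga also pairs with Max and is part of PRC1.6, a Polycomb complex that keeps germline genes silent. In fibroblasts the Myc mRNA is short-lived and is made soon after growth factors arrive, whereas Mxd genes are better known from cells that leave the cycle.

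The E-box is the sequence that the members share as a binding site, and 3 of the 8 members with an entry in the promoter table of RefSeq (GRCm38.p6) carry it in their own promoter window, which reaches from 250 bases before to 50 bases after the start of the gene. These are Max, Mxd4 and Mnt, and Myc had no entry. CACGTG was searched as written, which reads the same on both strands. Counted by window, it was present in 3 of the 10 windows of the members and in 7.15% of the 32851 windows of the table. Counted by gene, it was present in 11.7% of the 8604 tested genes with a window. With so few members, no enrichment is read from these shares. The stretches of 60 bases round it are shown 5′ to 3′ on the strand of the gene, with the E-box in capitals, since the genes whose windows hold these letters are described as a group further on. A match is a description of the sequence and does not show binding.
Max, chr12:76962219-76962278, minus strand, E-box starting 3 bases before the gene start: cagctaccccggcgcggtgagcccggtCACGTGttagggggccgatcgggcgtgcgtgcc
Mxd4, chr5:34187897-34187956, minus strand, E-box starting 219 bases before the gene start: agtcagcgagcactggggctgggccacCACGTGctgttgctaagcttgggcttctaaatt
Mnt, chr11:74830774-74830833, plus strand, E-box starting 123 bases before the gene start: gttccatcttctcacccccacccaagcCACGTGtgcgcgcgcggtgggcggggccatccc
The windows of Mycn, Mxd1, Mxd3 and Mga and all 3 windows of Mxi1 did not hold the letters.

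Signals are in arbitrary units and still contain the background, and the detection p of a probe is its rank among negative control probes of the same array. A probe was called detected at a detection p of 0.05 or less. Median signals were 152 to 161 on the Cr arrays and 157 to 167 on the untreated arrays, with 17289 to 17700 probes detected on the Cr arrays and 16396 to 17249 on the untreated arrays. Of 12 fibroblast markers 11 were tested and 10 were detected on all 6 arrays, with summed signals of 44062 to 48243 on the Cr arrays and 37560 to 51816 on the untreated arrays, and Thy1 had no named probe among those tested. Tested markers of other cell types were 3 of 6 for epithelium, 1 of 6 for macrophages, 2 of 6 for endothelium, 1 of 6 for adipocytes and 3 of 6 for muscle, and Epcam, Ptprc, Pecam1, Adipoq and Myod1 were not among them. The epithelial keratin genes Krt8 and Krt19 were detected on all 6 arrays, with Krt19 signals of 413 to 467 on the Cr arrays and 368 to 478 on the untreated arrays, and no tested marker of the other 4 types was. Untreated replicate 1 stood apart from the other arrays, with the lowest weight that limma estimated, 0.498, against 0.885 to 1.45 for the other 5. For member probes and list medians whose printed log2 difference turned its sign or moved by over 1.5 times without that array, the value without it is given.

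No probe of the network passed the test. Log2 differences are those of Cr over untreated after the variance stabilizing vsn model, a generalized log2 scale that shrinks changes of dim probes. A positive one means higher with Cr, and a probe was called at an adjusted p (Benjamini-Hochberg over all 20308 probes, limma) of 0.05 or less. Of the 10 member probes 0 were called, and 0 had an unadjusted p of 0.05 or less. Among all probes tested 0.0295% were called and 5.04% had an unadjusted p of 0.05 or less. The member probes had log2 differences of -0.18 to 0.22, 6 above and 4 below 0 (50.6% of all probes were above), with a median of 0.0090, and the median over all probes was 0.0014. Their adjusted p from limma lay between 0.986 and 0.998. The Mga probe ILMN_1222658, which is among those above 0, passed the detection filter through Cr replicate 3 alone, where it was highest. Its place in the count above 0 and in the median supports nothing. The groups did not overlap for 1 of the 10, the probe of Mxi1, where Cr was lower, and for 10.7% of all probes, 5.15% with Cr lower. Of the 10 member probes 6, from Myc, Max, Mxd4 and Mxi1, were detected on all 6 arrays, as were 73.8% of all probes. A p above the threshold does not show that the levels were equal. On the vsn scale the 95% intervals of all 10 probes together reached from 77.4% to 139% of untreated. The lower bound is that of the dim Mnt probe, whose differences this scale shrinks.

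**Figure D1:**
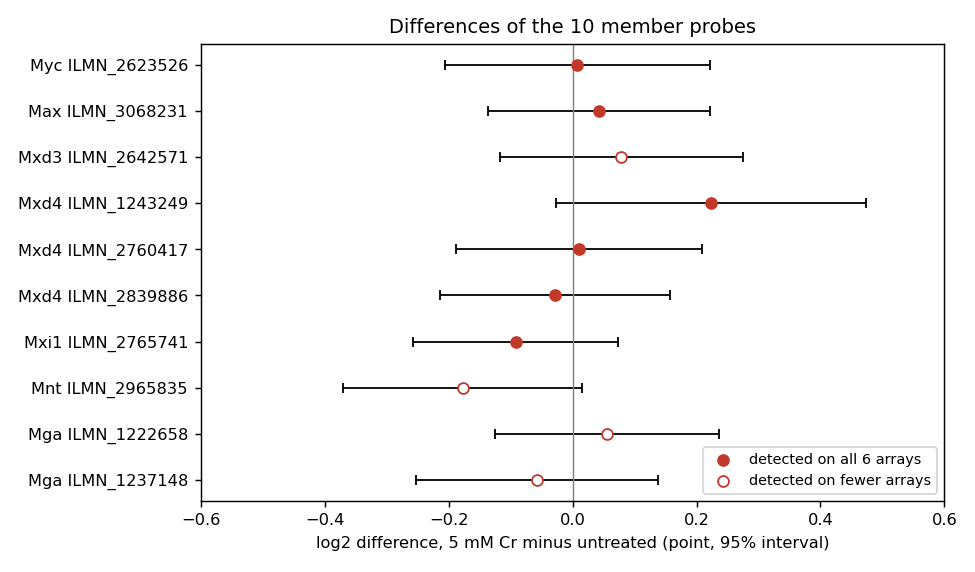
Log2 difference (horizontal axis, 5 mM Cr minus untreated) of each of the 10 member probes, with its 95% interval from limma (3 arrays a group). Filled points are probes detected on all 6 arrays and open points those detected on fewer. Every interval includes 0, and the points lie between -0.18 for Mnt and 0.22 for the Mxd4 probe ILMN_1243249. The point of Mga ILMN_1222658 is a fitted value of a probe not detected on any untreated array.

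Myc, the factor that drives growth genes, had close group means with wide overlap. Its probe ILMN_2623526, designed on transcript NM_010849, was detected on all 6 arrays. The signals were 422, 494 and 504 on Cr replicates 1, 2 and 3, against 440.2, 498 and 454 on untreated replicates 1, 2 and 3. Replicate 1 had the lowest signal of its group in both groups, and the groups overlapped over nearly their whole range. The mean was 473 ± 44.3 with Cr and 464 ± 30.3 in untreated controls (SD, n = 3 each). After normalization Myc had a log2 difference of 0.0077 (standard error 0.10, adjusted p = 0.998 from limma), which is 100.5% of the untreated level with a 95% interval of 86.7 to 117%. On the normalized log2 scale the 3 Cr arrays lay at 8.60, 8.78 and 8.77, inside the range of the untreated arrays, which were at 8.50, 8.77 and 8.87. Without untreated replicate 1 the log2 difference of Myc was -0.094, and without untreated replicate 3 it was 0.086.

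Max is the shared partner of all these factors. Its probe ILMN_3068231 (NM_008558) was detected on all 6 arrays. It had signals of 345, 357 and 377 on the Cr arrays, against 343, 374 and 329 on the untreated arrays. In raw signal untreated replicates 1 and 3 were below all Cr arrays. After normalization the Cr arrays, at 8.27, 8.27 and 8.31, lay between untreated replicate 1 at 8.11 and untreated replicate 3 at 8.32, with untreated replicate 2 at 8.30. The mean was 359.7 ± 16.2 with Cr and 349 ± 22.7 in untreated controls (SD, n = 3 each). Max had a log2 difference of 0.043 (standard error 0.084, adjusted p = 0.995 from limma), which is 103% of the untreated level with a 95% interval of 91.0 to 117%. Its log2 difference was -0.023 without untreated replicate 1.

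**Figure D2:**
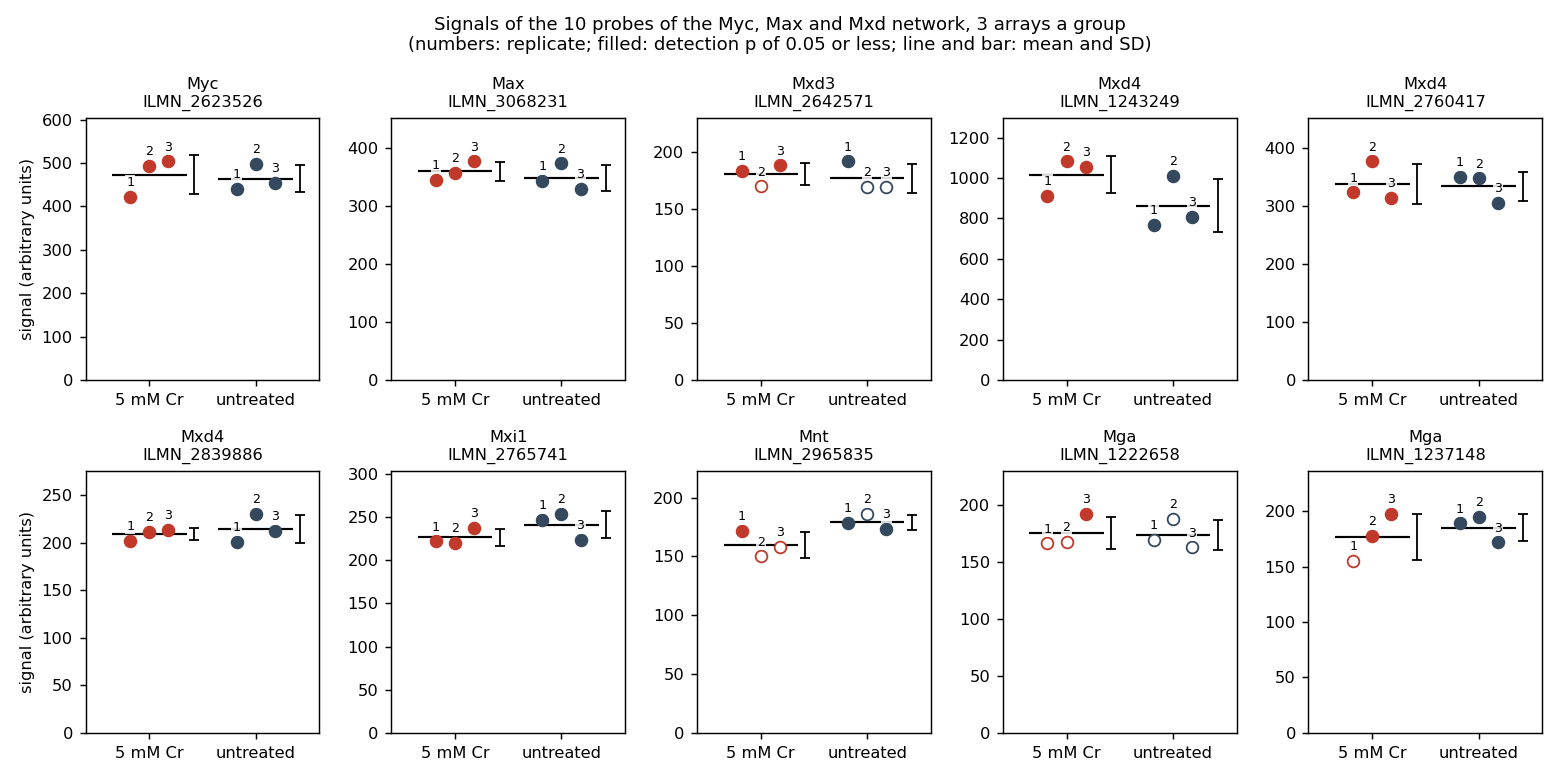
Signals in arbitrary units (vertical axes, from 0) of the 10 member probes on the 3 Cr arrays and the 3 untreated arrays, with the replicate number at each point, filled points where the detection p was 0.05 or less, and the mean with its SD. Raw signals of the groups overlap in every panel but that of Mnt, where the Cr arrays lie at 150.0 to 171 and the untreated arrays at 173 to 186.

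Of the Mxd repressors, Mxd4 had the highest point estimate of the network, on 1 of its 3 probes. Probe ILMN_1243249, for which the annotation lists no transcript, had signals of 913, 1082 and 1055 on the Cr arrays, against 770.0, 1012 and 807 on the untreated arrays. Cr replicates 2 and 3 were above every untreated array, whereas Cr replicate 1 was below untreated replicate 2. The mean was 1017 ± 91.0 with Cr and 863 ± 130.5 in untreated controls (SD, n = 3 each). This probe had a log2 difference of 0.22 (standard error 0.12, adjusted p = 0.986 from limma), which is 117% of the untreated level with a 95% interval of 98.1 to 139%. Its standard error was the highest of the 10 probes, and without untreated replicate 1 its log2 difference was 0.062.

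The other 2 Mxd4 probes, both designed on NM_010753 and detected on all 6 arrays, were close to 0. Probe ILMN_2760417 had signals of 324, 377 and 314 on the Cr arrays and 349.8, 348 and 306 on the untreated arrays, with a log2 difference of 0.010 (95% interval -0.19 to 0.21). Probe ILMN_2839886 had signals of 202, 211 and 214 on the Cr arrays and 201, 230.1 and 212 on the untreated arrays, with a log2 difference of -0.028 (95% interval -0.21 to 0.16), or -0.097 without untreated replicate 1. The groups overlapped on both probes. The value of probe ILMN_1243249 minus that of ILMN_2839886 was 2.42, 2.59 and 2.55 on the Cr arrays and 2.11, 2.41 and 2.29 on the untreated arrays, on the log2 scale. The 3 Cr values were all above the 3 untreated values, by 0.25 on average. A two-sided exact permutation test gave p = 0.1 (adjusted p = 0.4 over the 4 pairs of probes of 1 gene that were compared). That p is the smallest that 3 arrays against 3 allow, and values that lie apart always give it. Against ILMN_2760417 the same difference was 0.21 and the values overlapped (exact permutation p = 0.4). Without untreated replicate 1 these differences were 0.16 and 0.065. Whether these probes read different Mxd4 transcripts was not tested, so no level of Mxd4 mRNA as a whole is given.

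Mxd3, a repressor known from dividing cells, was dim. Probe ILMN_2642571 (NM_016662) was detected on 2 of the 3 Cr arrays and 1 of the 3 untreated arrays. Its signals were 183, 170.0 and 188 on the Cr arrays and 192, 169.6 and 169.6 on the untreated arrays. After normalization the Cr arrays lay at 7.20, 7.01 and 7.13 and the untreated arrays at 7.17, 6.89 and 7.04, and the groups overlapped. The log2 difference was 0.078, with a 95% interval of -0.12 to 0.27 (adjusted p = 0.992 from limma). It lay between 0.0074, without untreated replicate 2, and 0.13, without Cr replicate 2 or untreated replicate 1, and was 0.038 without Cr replicate 1. With neqc it was 0.19 and with normexp and median scaling 0.21, where the median of all probes was 0.049.

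Mxi1, the Mxd relative that was found as a partner of Max, was the member whose groups lay apart after normalization. Probe ILMN_2765741 (NM_001008543) was detected on all 6 arrays. The signals were 222, 220.2 and 238 on the Cr arrays, against 246, 253 and 223 on the untreated arrays, so that raw signals overlapped. On the normalized log2 scale they were 7.53, 7.46 and 7.54 with Cr and 7.58, 7.63 and 7.60 in untreated controls, and each Cr array was below each untreated array. The log2 difference of Mxi1 was -0.092 (standard error 0.078, adjusted p = 0.986 from limma), which is 93.8% of the untreated level with a 95% interval of 83.6 to 105%. A two-sided exact permutation test gave p = 0.1, the smallest possible here. With 10.7% of all probes apart in either direction, 1 of 10 member probes is close to the background. Mxi1 had a log2 difference between -0.11 and -0.068 with any 1 array left out, and -0.17 with neqc.

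Mnt, the most widely expressed of the factors that oppose Myc, had the lowest point estimate, on a probe close to the detection limit. Probe ILMN_2965835 (NM_010813) was detected on 1 of the 3 Cr arrays and 2 of the 3 untreated arrays. Its signals were 171, 150.0 and 158 on the Cr arrays and 179, 186 and 173 on the untreated arrays. All raw Cr signals were below all raw untreated signals, whereas after normalization Cr replicate 1, at 7.07, lay within the untreated range of 7.05 to 7.08. The mean signal was 160 ± 10.8 with Cr and 179 ± 6.39 in untreated controls (SD, n = 3 each). Mnt had a log2 difference of -0.18 (standard error 0.090, adjusted p = 0.986 and unadjusted p = 0.069 from limma), which is 88.4% of the untreated level with a 95% interval of 77.4 to 101%. Leaving out 1 array moved the value between -0.28, without Cr replicate 1, and -0.12, without Cr replicate 2. With neqc, which subtracts background estimated from the negative controls, it was -0.36, and with normexp and median scaling -0.35. The adjusted p of Mnt was 0.721 or more under all alternatives.

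Mga, which joins a T-box domain and a Max-binding domain in 1 protein, was also at the detection limit. Probe ILMN_1237148 (NM_013720) had signals of 155, 177 and 197 on the Cr arrays and 189, 195 and 172 on the untreated arrays. The Cr arrays held both the lowest and the highest value, and the log2 difference was -0.057 (standard error 0.091, adjusted p = 0.995 from limma). Probe ILMN_1222658 (NM_013720) had signals of 167, 168 and 192 on the Cr arrays and 169.9, 188 and 163 on the untreated arrays. It was detected on Cr replicate 3 alone, so that no fold is given for it (adjusted p = 0.994 from limma).

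The arrays differed from each other in part for several members at once. Untreated replicate 1 had the lowest normalized value of the 6 arrays for 4 of the 10 member probes, those of Myc and Max and 2 of Mxd4, and the highest for 0. Among all probes it was the lowest for 22.1% and the highest for 23.7%. Without that array the log2 differences of Myc, Max and the Mxd4 probe ILMN_2760417 were below 0, at -0.094, -0.023 and -0.0035, and those of Mxi1 and Mnt were -0.095 and -0.16. No member had an adjusted p under 0.789 in that fit. The median of the member probes was then -0.032.

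**Figure D3:**
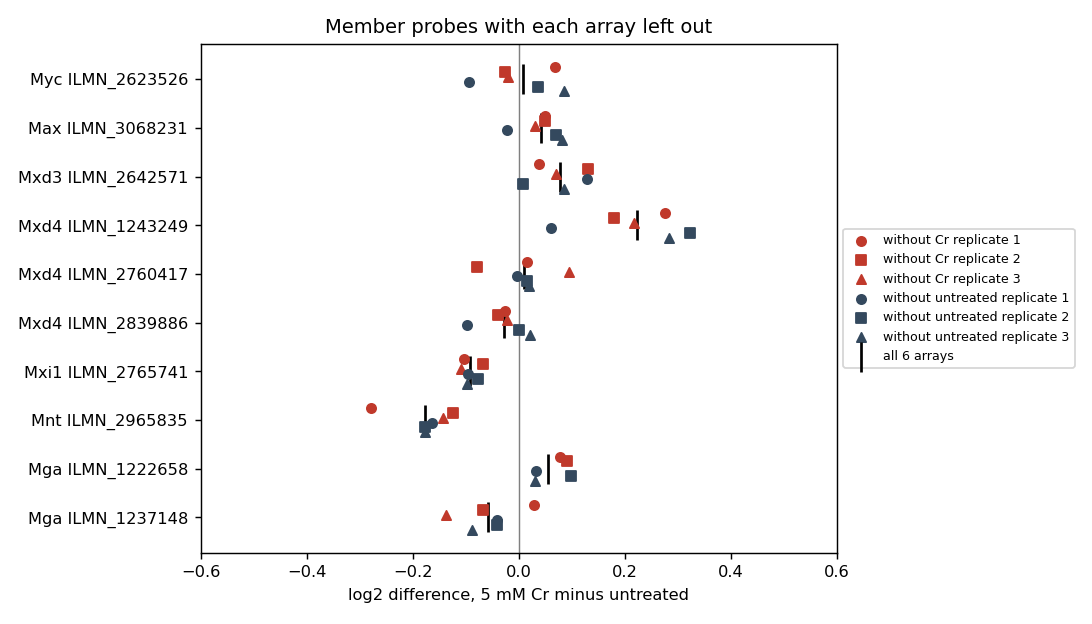
Log2 difference (horizontal axis, 5 mM Cr minus untreated) of each member probe with all 6 arrays (black bar) and with each array left out in turn (red, a Cr array left out, and blue, an untreated array left out). Mga ILMN_1222658, detected on Cr replicate 3 alone, has no symbol for that array left out, and its other symbols are fitted values. The symbols for Myc, Max, 2 Mxd4 probes and 1 Mga probe lie on both sides of 0, those of Mxi1 and Mnt stay below 0, and leaving out untreated replicate 1 moves the Mxd4 probe ILMN_1243249 to 0.062.

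The profile of Myc over the 6 arrays was compared with that of every tested probe of another gene, as the root mean square difference of the normalized log2 values after each probe was centred on its own mean. The nearest were Bcl10, an adaptor of NF-kappaB signalling, at 0.021, the actin-binding protein gene Cotl1 at 0.023, Inip, a subunit of a complex that binds single-stranded DNA, at 0.025, the ETS factor gene Elf2 at 0.028 and Galc, a lysosomal galactosylceramidase gene, at 0.029. The median distance over 16924 probes was 0.156, and the profile of Myc itself had a root mean square deviation of 0.124. All 5 were lowest on untreated replicate 1 and highest on untreated replicate 3, as Myc was. Their log2 differences lay between -0.018 and 0.042, and Bcl10 and Galc were detected on 2 arrays of each group. These profiles share 6 arrays and their normalization, and the likeness is a description. The 5 genes were chosen by this distance, so the shared extreme arrays and the small log2 differences follow from the choice.

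The proteins that work with the network showed no called gene either. Each gene of a list was represented by its probe of highest mean, and 0.0472% of all genes tested on such probes were called. Of 120 tested genes in 11 lists of partners and targets, 0 were called, 5 had an unadjusted p of 0.05 or less with a higher value and 6 with a lower value. Among all genes these were 2.63% and 2.65%, or 5.27% together, against 9.17% of the listed genes. The groups did not overlap for 16 of the 120 (13.3%), against 11.4% of all genes. The lists were chosen with earlier results of these data known, so nothing about the listed genes is concluded from these shares. The family members Mycl, Bmyc and Mycs, a list of their own, had no named probe among those tested. Mlx, the Max-like partner of the glucose-sensing factors, had a log2 difference of -0.040, Mlxip, also called MondoA, 0.018 and Mlxipl, also called ChREBP, -0.098, each with overlapping groups.

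Of 16 coactivators that Myc recruits, such as histone acetyltransferases and elongation factors, 15 were tested and 0 called, with 5 above and 10 below 0 and a median log2 difference of -0.031. Cdk9, the kinase that releases paused polymerase, had -0.19 (standard error 0.083, adjusted p = 0.962 from limma) with groups apart. Crebbp, Ep400 and Kat2a had -0.25, 0.14 and -0.12 with overlapping groups. Without untreated replicate 1 the median of the coactivators was 0.038, and without untreated replicate 3 it was -0.061. After normexp and median scaling it was 0.017. Under that scaling the median of all probes was 0.049, against 0.0014 with the settings of the report. List medians under it are to be read against 0.049. Of 14 corepressor genes of the Sin3 and related complexes 10 were tested and 0 called, with a median of -0.037, which was 0.037 without untreated replicate 2. Sin3a, the scaffold that Mxd proteins and Mnt bind, had 0.11, Suds3 0.10 and Hdac2 0.092, and Sap30 had -0.085 with groups apart. Of 16 factors that set the stability of the Myc protein 14 were tested and 0 called, with a median of 0.016, which was -0.0065 without untreated replicate 1, -0.013 without Cr replicate 3 and 0.079 after normexp and median scaling. Usp28, a deubiquitinase that spares Myc, had -0.19 and Bin1 -0.14, whereas Ppp2ca and Stub1 had 0.097 and 0.087.

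Of 10 PRC1.6 genes that work with Mga all 10 were tested and 0 called, with 6 above and 4 below 0 and a median of 0.052. The median was 0.019 over the 9 genes detected on all 6 arrays and 0.035 without Cr replicate 2. After normexp and median scaling it was 0.11, where the median of all probes was 0.049. E2f6, the DNA-binding repressor of that complex, had signals of 1766, 1862 and 1765 on the Cr arrays, against 1819, 1425 and 1305 on the untreated arrays. The raw groups overlapped through untreated replicate 1, and after normalization they were apart, with a log2 difference of 0.23 (standard error 0.087, adjusted p = 0.948 from limma). Kdm5c, a histone demethylase gene, was detected on all 3 Cr arrays and on no untreated array. It was at least 1.08-fold higher with Cr by group means, with the untreated arrays set to the lowest detected value where they were below it (adjusted p = 0.903 from limma). It passed the detection filter through the Cr arrays alone, where it was high. Kdm5c is 1 of the 5 listed genes counted above as higher by their unadjusted p. It is also 1 of the 16 listed genes whose groups did not overlap and 1 of the 6 PRC1.6 genes above 0. Its place in all of these counts supports nothing. Rnf2 and Rybp had 0.12 and -0.10. Of 12 germline genes that Mga and Max keep silent in mouse embryonic stem cells 3 were tested, and Zcwpw1 alone was detected on all 6 arrays, at 0.045. Tdrd1 had -0.070, and Tex101 was detected on 1 Cr array, so that no fold is given.

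**Figure D4:**
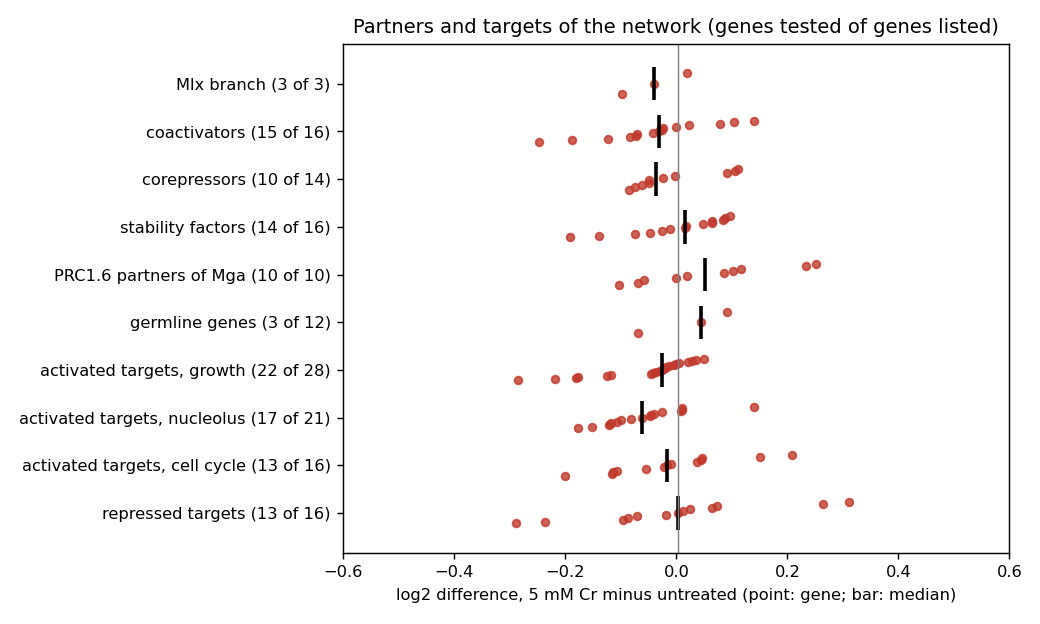
Log2 difference (horizontal axis, 5 mM Cr minus untreated) of each tested gene of 10 lists of partners and targets, with the list median as a black bar and the median of all genes tested as a grey line. The lowest list median is -0.062, for activated targets of the nucleolus. The highest is 0.052, for the PRC1.6 partners of Mga (0.019 over those detected on all 6 arrays). No gene shown was called. The points of Kdm5c and Tex101 are fitted values of probes not detected on any untreated array.

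Of 52 tested genes that Myc activates 0 were called, 14 were above and 38 below 0, and 51.3% of all genes were above. These are counts with no test of the group. Of 28 targets in metabolism and growth 22 were tested and 0 called, with 5 above and 17 below 0 and a median of -0.025. That median was -0.051 without untreated replicate 3 and 0.022 after normexp and median scaling, where the median of all probes was 0.049. Srm, the spermidine synthase gene, had signals of 7735, 7613 and 7766 on the Cr arrays, against 10224, 8540.4 and 7012 on the untreated arrays. Untreated replicate 3 was below all Cr arrays in raw signal, and after normalization the groups were apart, with a log2 difference of -0.18 (standard error 0.081, adjusted p = 0.962 from limma). The mitochondrial chaperonin genes Hspd1 and Hspe1 had -0.22 and -0.28 and the polymerase subunit gene Polr3d -0.18, each with overlapping groups.

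Of 21 nucleolar and ribosome assembly targets 17 were tested and 0 called, with 4 above and 13 below 0 and a median of -0.062. Dkc1, which encodes the pseudouridine synthase dyskerin, had -0.18 with groups apart (adjusted p = 0.985 from limma). Its probe was dim, with signals of 191, 189 and 216 on the Cr arrays and 223, 223 and 218 on the untreated arrays. Rrp9 and Gnl3 had -0.15 and -0.12, and Ubtf, a factor of ribosomal RNA transcription, had 0.14 with groups apart. The median of these 17 genes lay between -0.090 and -0.052 with any 1 array left out, and it was -0.015 after normexp and median scaling, where the median of all probes was 0.05. Of 16 cell cycle targets 13 were tested and 0 called, with 5 above and 8 below 0 and a median of -0.017. That median was 0.025 without Cr replicate 2, -0.034 without untreated replicate 2, -0.030 without untreated replicate 1 and 0.033 after normexp and median scaling. E2f2, detected on 1 of the 3 untreated arrays, and the replication helicase gene Mcm4 had 0.21 and 0.15, and Ccne1 and E2f1 had -0.20 and -0.11.

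Genes that Myc represses lay on both sides of 0. Of 16 such genes 13 were tested and 0 called, with 7 above and 6 below 0 and a median of 0.0031, which lay between -0.042 and 0.031 with 1 array left out, and was -0.0053 without untreated replicate 1. Cdkn1a, the cell cycle inhibitor p21, had signals of 251, 264 and 239 on the Cr arrays, against 295, 319 and 281 on the untreated arrays. The groups did not overlap, and the log2 difference was -0.29 (standard error 0.089, adjusted p = 0.726 from limma). The stress genes Gadd45a and Gadd45b had 0.26 and 0.31 (adjusted p = 0.712 and 0.761 from limma). Gadd45b had signals of 1575, 1410.4 and 1311 on the Cr arrays, all above 1212, 1142 and 1055 on the untreated arrays. Ndrg1, a stress response gene, had -0.24 with overlapping groups. These 4 genes had unadjusted p of 0.0048 to 0.033, and none passed over all probes.

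Genes with the E-box shown above in their promoter window had a median difference near 0, as all genes did. Among the 8604 tested genes with a window 1009 (11.7%) held CACGTG, and their median log2 difference was -0.00017, against 0.0028 for the genes without it. Without untreated replicate 1 these medians were 0.0019 and 0.0073. Of the genes with the E-box 0 were called and 4.76% had an unadjusted p of 0.05 or less, and of those without it 5 were called and 5.29% had such a p. Of 42 activated targets with a window 9 (21.4%) held the E-box, with a median of -0.055, and those without it had a median of -0.029. Of the members, Max, Mxd4 and Mnt had the log2 differences given above, on either side of 0.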

How the data were processed

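Of 6 arrays, 1 per sample, the deposited export holds 45281 probes, each with an intensity, deposited as the authors had it from GenomeStudio without normalization, and a detection p-value computed against the negative controls. The deposited processed log2 values were made by the authors with background correction and vsn, and they cover the 20308 probes detected on at least 1 array. They rank probes on each array as the signals do, with medians of 8.29 to 8.32.

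In R 4.3.3 the vsn model (an offset and a scale per array in an asinh transformation, least trimmed squares quantile 0.9, 7 rounds) was fitted to the signals of all probes. The test, on every probe that any array detected (detection p of 0.05 or less), was that of limma 3.58.1 (lmFit, eBayes, two-sided, no covariate), with Benjamini-Hochberg adjustment over all of them. The steps were tested on simulated arrays. Of 50 probes with a true log2 change of 0.25 there, 1 was called. At a change of 0.5 it was 27 of 50 and at a change of 1 it was 48 of 50, with 3 false calls in all. Changes of the size of the member estimates would thus mostly not be called. Where a group had no detected array the fold is a bound, set against the lowest detected value of each array.

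Probes were named from the platform annotation, in which 16925 tested probes had 1 symbol, 7 several and 3376 none. It covers the tested probes, so 24973 others are unnamed here. Symbols were checked through Entrez IDs against a RefSeq table (20 IDs not matched, 0 symbols changed). No genome build is given for the array in the sources used here, and the coordinates are those of the RefSeq promoter table, GRCm38.p6.

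Members and lists were chosen with earlier results of these data known. Named are all member probes, the called genes and up to 4 genes of lowest p in each list, all genes of lists of 3 or fewer, and the 5 genes nearest to Myc in profile. The search for CACGTG was added after the data had been seen. Alternatives were the deposited values, neqc (offset 16), log2 with quantile normalization, normexp with median scaling, other filters, a trended robust variance, weights for arrays, a block for the replicate number, 1 probe per gene, a threshold of 0.1 and each array left out. Figures were drawn with matplotlib 3.10.9.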

Additional observations from a re-analysis of the deposited data

How the results depend on the processing

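No member probe and no gene of the lists was called under any of the 17 alternatives run. Over 162 member values the adjusted p from limma lay between 0.628 and 1.00. The number of probes called among all, 6 with the settings of the report, was 12 with the deposited values and with log2 and quantile normalization, 0 with neqc and with normexp and median scaling (1145 and 1001 at an unadjusted p of 0.05 or less), 10 with no filter, 13 with a trended robust variance, 15 with array weights, 14 with the replicate block and 13 at a threshold of 0.1. It lay between 0 and 14 with 1 array left out, the highest without untreated replicate 1 and 0 without Cr replicate 1 or 3 or untreated replicate 2 or 3 (764 to 1488 at an unadjusted p of 0.05 or less). The sign turned for Myc with log2 and quantile normalization (-0.0011) and array weights (-0.049) and for Mxd4 ILMN_2760417 with array weights (-0.019). It also turned for Mxd4 ILMN_2839886 with normexp and median scaling (0.0036), where the median of all probes was 0.049. With 1 array left out, Myc lay between -0.094 and 0.086, Max between -0.023 and 0.081, Mxd4 ILMN_2760417 between -0.079 and 0.095, Mxd4 ILMN_2839886 between -0.097 and 0.022 and Mga ILMN_1237148 between -0.14 and 0.028. The causes were not tested. An unadjusted p of 0.05 or less was reached by the Mxd4 probe ILMN_1243249 with the replicate block (0.022, adjusted p = 0.628) and without untreated replicate 2 (0.016, adjusted p = 0.628), and by Mnt without Cr replicate 1 (0.0098, adjusted p = 0.989). The deviations of same-numbered samples had correlations of 0.24, 0.31 and -0.03 over probes. Cr replicates 1 and 2 matched the untreated sample of their own number best, whereas Cr replicate 3 matched untreated replicate 1 best. These values do not settle whether the numbers mark pairs, and the main fit took none. No slide was named, so that block was not run. Mxd3, Mnt and Mga were close to the detection limit, where the scale shrinks differences, and 3 arrays a group limit the precision.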
